A study of Micropterus salmoides with 68 samples.

Results

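Spleens of largemouth bass (Micropterus salmoides) labelled abnormal after 3 days of recovery from transport were compared with spleens taken after 1 day of recovery, which trace the way from the first day to the state labelled abnormal. The labels place 3 libraries in the abnormal day 3 group and 4 in the day 1 group, so 7 of the 68 samples of the series form the comparison. All genes of the table were used, on the scale log2(TPM + 1), where TPM is the length-corrected abundance that Salmon gives each transcript as a share of its library. The fish were pond-raised fingerlings and each library came from 1 fish. They travelled for 4 h at 125 fish per box in 30 L of aerated water, then recovered in indoor tanks of 600 L in a room held at 28 °C, without feed. Fish of both groups had gone through this transport and fast, and the day 3 fish had fasted longer. The labels do not say what made a fish abnormal, and day 1 fish were not sorted into normal and abnormal, so the state they would have reached is not known. Spleens labelled normal on day 3 (3 libraries) are used to ask whether the same genes differ between the labels. Since every fish of the comparison had travelled, the effects of time, fasting and tank cannot be told apart from recovery.

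The spleen of a bony fish filters the blood and stores red cells in its red pulp. It also holds macrophages, lymphocytes and granulocytes, and a bed of sinusoidal endothelium and connective tissue supports them. In fish, stress hormones released by handling are known to mobilise red cells from the spleen and to shift white cells between spleen, head kidney and blood.

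The day 1 spleens did not form a single group. Pearson r of log2(TPM + 1) across genes was 0.961 between day 1 libraries 1 and 2. It was 0.857 between day 1 libraries 3 and 4, and ran from 0.801 to 0.843 between these pairs. The abnormal day 3 libraries correlated with each other at 0.914 to 0.963, with day 1 libraries 1 and 2 at 0.916 to 0.956, and with day 1 libraries 3 and 4 at 0.748 to 0.818. Across genes, abnormal day 3 spleens were therefore as close to day 1 libraries 1 and 2 as to each other. They were further from the normal day 3 spleens, at 0.857 to 0.897. These are descriptions over genes that all libraries share, not tests.

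Day 1 library 3 held 274347 TPM of rps3a and 120878 TPM of rps4x, both ribosomal protein genes, where the other 6 compared libraries held 954 to 2223 and 684 to 1658 TPM. Day 1 library 4 was the highest of all 34 spleen libraries at 6990 genes, and day 1 library 3 was the lowest at 3538 genes. The 7 libraries had 14404 to 16373 genes at 1 TPM or more. Most results below are therefore given with and without day 1 libraries 3 and 4, a choice made after the values were seen. Abnormal day 3 library 2 also departed from the other 2 of its group in several genes, and those values are given where they occur. Tissue was collected fish by fish. The p-values rest on 1 estimate of spread per gene, shared by all 34 spleen libraries in 9 groups. This need not equal the spread of the 7 compared libraries, and with those alone in the fit 2 genes passed.

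Between abnormal day 3 and day 1 spleens, 212 of 17998 genes passed the threshold (limma adjusted p under 0.05), which is 1.18% of the genes tested. Of these 112 were higher in abnormal day 3 spleens (0.622%) and 100 were lower (0.556%). The median log2 difference over all genes was -0.19. After median-of-ratios rescaling, which sets the typical gene of each library to the same level, that median moved to 0.02 and 3346 genes passed (18.6%), with 1609 higher (8.94%) and 1737 lower (9.65%). All 212 genes passed again after rescaling in the same direction. When day 1 libraries 3 and 4 were left out, 2 genes passed (0.0111%), of which 1 was higher (0.00556%) and 1 lower (0.00556%) in abnormal day 3 spleens, and 829 had an unadjusted limma p under 0.05. With rescaling and without those libraries, 4 passed.

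The 212 genes differed most in day 1 libraries 3 and 4. In 179 of them both libraries lay beyond day 1 libraries 1 and 2, on the side away from the abnormal day 3 spleens. The median size of the log2 difference was 1.69 over the 212 genes, and 0.80 against day 1 libraries 1 and 2 alone. All 212 kept their direction in that smaller comparison, which shares its libraries with the larger one. In 190 of them the abnormal day 3 libraries lay clear of day 1 libraries 1 and 2. The selection on the full contrast favours genes of this kind, so these counts only describe the 212. Of the 212, 134 have a gene symbol and 78 carry only a locus number.

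**Figure D1:**
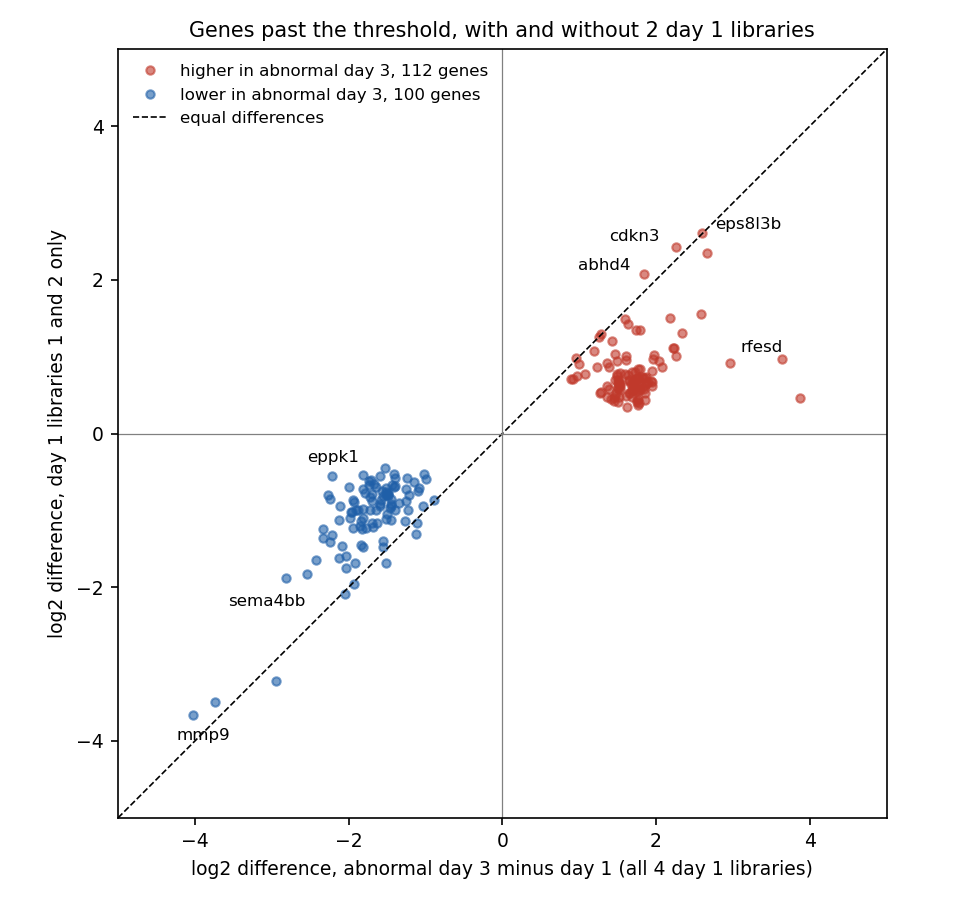
Log2 difference (abnormal day 3 minus day 1) of the 212 genes past the threshold, with all 4 day 1 libraries on the horizontal axis and with day 1 libraries 1 and 2 only on the vertical axis; each point is 1 gene and the dashed line marks equal differences. Most points lie nearer to 0 on the vertical axis, with a median size of 0.80 against 1.69, while mmp9, cdkn3, eps8l3b and abhd4 lie near the dashed line.

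The number of calls moved widely with the setting. It ran from 8 to 2681 when 1 library was left out, and was 2 when only the 2 compared groups were fitted. No gene passed under all 22 alternatives tried. Of the 212, 170 passed under at least 10 of them and 11 under at least 16. Of those 11, 5 carry only a locus number. The other 6 are abhd4, armc2, eps8l3b, lnx2a, si:dkey-51e6.1 and sulf2a, which were chosen for description after their values were seen.

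**Figure D2:**
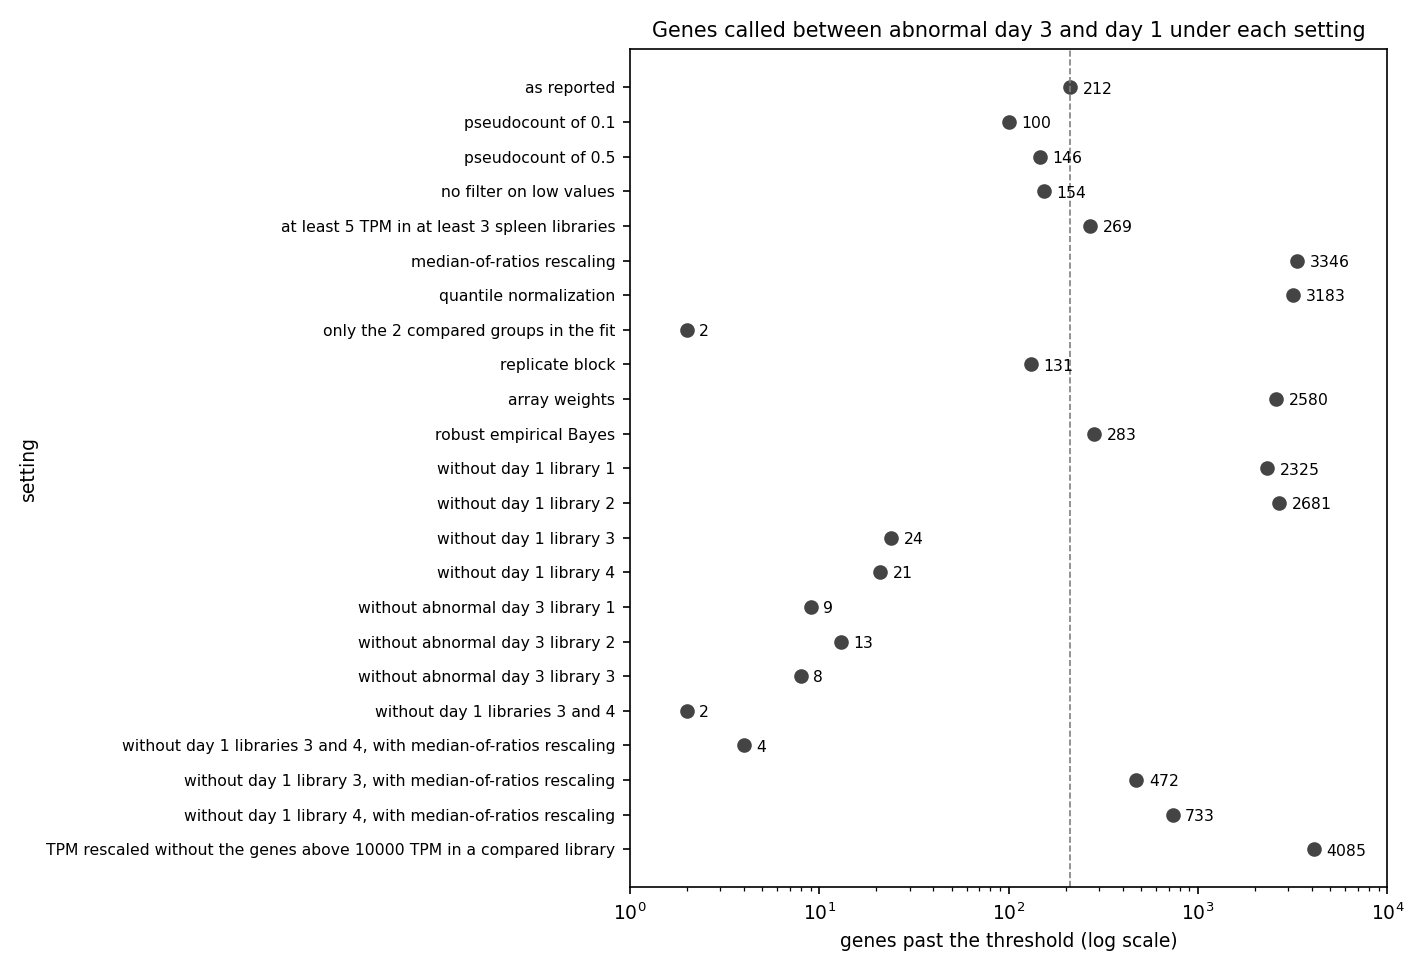
Number of genes past the threshold between abnormal day 3 and day 1 spleens (horizontal axis, log scale) under the reported fit and each of the 22 alternatives (rows); the dashed line marks the reported 212. Counts run from 2, without day 1 libraries 3 and 4 or with only the 2 groups in the fit, to 4085, with TPM rescaled without the most abundant genes.

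Of the 6 genes, abhd4 encodes a lipase of N-acyl phospholipids known from mammals. It had 34.1, 39.0 and 24 TPM in abnormal day 3 spleens, against 6.07, 7.54, 3.06 and 27.1 TPM in day 1 spleens. Only day 1 library 4 reached the range of the abnormal spleens, so the groups overlapped by that library. The log2 difference was 1.85 (SE 0.42, limma adjusted p = 0.0339). Without day 1 libraries 3 and 4 it was 2.08 (limma adjusted p = 0.0416), so abhd4 passed either way. Spleens before transport had 8.66 to 13.05 TPM of abhd4, and those at the end of transport 18.6 to 33.1 TPM. Normal day 3 spleens had 20.3, 13.1 and 19.0 TPM, and the difference between abnormal and normal day 3 spleens did not pass before rescaling.

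The other gene that passed without day 1 libraries 3 and 4 was lnx2a, which encodes a ubiquitin ligase that binds the cell fate protein Numb. It had 0.48, 0.63 and 0.76 TPM in abnormal day 3 spleens, against 1.90, 2.58, 1.89 and 5.79 TPM in day 1 spleens, with no overlap. The log2 difference was -1.22 (SE 0.20, limma adjusted p = 0.0043), and -0.99 without day 1 libraries 3 and 4 (limma adjusted p = 0.00891). Its level was also low in normal day 3 spleens, at 0.17 to 0.24 TPM, and in spleens before transport, at 0.33 to 0.65 TPM. Day 1 was the group in which it was high. A gene was tested only if at least 3 spleen libraries reached 1 TPM. For lnx2a these were all day 1 spleens, so it entered the test only through the group where it was high. The fit without day 1 libraries 3 and 4 kept the same tested genes, so its pass there is no separate support.

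The gene sulf2a encodes an enzyme that removes sulfate groups from heparan sulfate outside the cell. It was at 0.13, 0.05 and 0.07 TPM in abnormal day 3 spleens, against 1.1, 1.08, 1.66 and 1.09 TPM in day 1 spleens. The groups did not overlap and day 1 libraries 1, 2 and 4 were nearly equal. The log2 difference was -1.04 (SE 0.16, limma adjusted p = 0.0043), and -0.95 without day 1 libraries 3 and 4 (limma adjusted p = 0.0819). At levels this low, as for lnx2a, the 1 TPM added before the log shrinks the difference, so it is no fold. The gene sulf2a passed under 19 of the 22 alternatives. No spleen outside day 1 reached 1 TPM (highest 0.72 TPM), so sulf2a too met the filter for testing only through the group where it was high. The number of alternatives passed is therefore no separate support for it.

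A gene of the EPS8 family of actin-regulating adaptors, eps8l3b, had 6.74, 2.79 and 6.65 TPM in abnormal day 3 spleens and was listed at 0 in all 4 day 1 spleens. The difference on the log2(TPM + 1) scale, which is no fold for a gene listed at 0, was 2.60 (SE 0.39, limma adjusted p = 0.00365). It was also 2.60 without day 1 libraries 3 and 4, where it just missed the threshold (limma adjusted p = 0.0658). It passed under 20 of the 22 alternatives. The armadillo-repeat gene armc2 went the other way, with 0, 0 and 0.64 TPM in abnormal day 3 spleens against 2.69, 1.92, 2.21 and 3.13 TPM in day 1 spleens (log2 difference -1.55, SE 0.31, limma adjusted p = 0.0271). Against day 1 libraries 1 and 2 alone its difference was -1.48 (limma adjusted p = 0.301). These differences of armc2 are no folds either.

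The largest fall past the threshold was that of mmp9, the gelatinase that fish and mammalian neutrophils carry in their granules. It had 5.79, 356 and 35.5 TPM in abnormal day 3 spleens, against 714, 443, 617 and 1417 TPM in day 1 spleens. The groups did not overlap, but abnormal day 3 library 2 lay close to the lowest day 1 library and far above the other 2 of its group. The log2 difference was -4.03 (SE 0.92, limma adjusted p = 0.0341). It was -3.66 without day 1 libraries 3 and 4 and did not pass there (limma adjusted p = 0.601). Of the 11 neutrophil markers measured, mmp9 was the 1 past the threshold (9.09%, against 1.18% of all genes, a difference that rests on 1 gene). The median of the list was -0.20, against -0.19 over all genes, turning to 0.07 after rescaling. The summed level of the list was 444, 1544 and 395 TPM in abnormal day 3 spleens, against 1551, 1040, 1427 and 2499 TPM in day 1 spleens. This sum includes mmp9 at the levels given above, so it does not show a fall of the other markers. In these bulk samples, fewer cells of a type and less RNA per cell cannot be told apart.

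The large falls and rises described here were picked for no overlap between the groups, so that feature is not a result. Several of the other large falls encode proteins of the cell surface and of signalling. The membrane-bound semaphorin gene sema4bb had 5.62, 5.06 and 7.94 TPM in abnormal day 3 spleens, against 21.7, 27.2, 39.3 and 112 TPM in day 1 spleens (log2 difference -2.54, SE 0.52, limma adjusted p = 0.0285). The groups were well apart, and the difference was -1.83 without day 1 libraries 3 and 4 (limma adjusted p = 0.581). A docking protein that holds latent TGF-beta at the cell surface, also called GARP, is encoded by lrrc32. It had 8.10, 12.1 and 18.8 TPM in abnormal day 3 spleens, against 49.7, 38.3, 47.9 and 89.4 TPM in day 1 spleens (log2 difference -2.03, SE 0.45, limma adjusted p = 0.0337). Here day 1 library 3 lay among day 1 libraries 1 and 2, and the difference without libraries 3 and 4 was -1.75 (limma adjusted p = 0.581).

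The gene arap3 had 2.09, 1.61 and 2.44 TPM in abnormal day 3 spleens, against 6.12, 8.15, 16.5 and 36.3 TPM in day 1 spleens (log2 difference -2.25, limma adjusted p = 0.023, and -1.41 without day 1 libraries 3 and 4, limma adjusted p = 0.548). All 4 day 1 libraries were above the abnormal ones. The phospholipid flippase gene atp8b4 had 1.23, 9.54 and 2.04 TPM in abnormal day 3 spleens, against 11.2, 9.76, 18.5 and 36.4 TPM in day 1 spleens (log2 difference -2.08, limma adjusted p = 0.0409, and -1.47 without those libraries, limma adjusted p = 0.927). As with mmp9, abnormal day 3 library 2 came within reach of the day 1 spleens. The water channel gene aqp8a.2 had 2.88, 0.68 and 2.51 TPM in abnormal day 3 spleens, against 6.29, 9, 4.18 and 47.1 TPM in day 1 spleens (log2 difference -2.03, limma adjusted p = 0.0341, and -1.59 without those libraries, limma adjusted p = 0.299). The remaining member of this kind, wnk4a, encodes a kinase of ion transport and fell by 2.11 on the log2 scale (limma adjusted p = 0.0339), with a difference of -0.94 without day 1 libraries 3 and 4 (limma adjusted p = 0.894). The gene si:dkey-97m3.1, of no given role, had 11.6, 31.9 and 10.6 TPM in abnormal day 3 spleens, against 57.4, 45.2, 78.3 and 135 TPM in day 1 spleens (log2 difference -2.12, limma adjusted p = 0.0337, and -1.62 without those libraries, limma adjusted p = 0.655).

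The other large falls encode proteins of the matrix and of the cytoskeleton, and in these day 1 libraries 3 and 4 stood far above day 1 libraries 1 and 2. The fibrillin gene fbn2b had 5.51, 7.11 and 4.27 TPM in abnormal day 3 spleens, against 10.4, 11.2, 56.1 and 113 TPM in day 1 spleens (log2 difference -2.24, limma adjusted p = 0.0437). Its difference without day 1 libraries 3 and 4 was -0.86 (limma adjusted p = 1). The laminin chain gene lamc1 had 21.5, 11.4 and 23.6 TPM in abnormal day 3 spleens, against 41.0, 40.0, 113 and 240 TPM in day 1 spleens (log2 difference -2.13, limma adjusted p = 0.0399, and -1.13 without those libraries, limma adjusted p = 1). Genes for the cytoskeletal linkers plectin (plecb) and epiplakin (eppk1) fell by 2.27 and 2.22 on the log2 scale with all libraries, and their differences were -0.80 and -0.55 without day 1 libraries 3 and 4. For eppk1 the 3 abnormal day 3 spleens were at 2.19 to 2.29 TPM, next to 2.85 TPM in the lowest day 1 spleen.

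**Figure D3:**
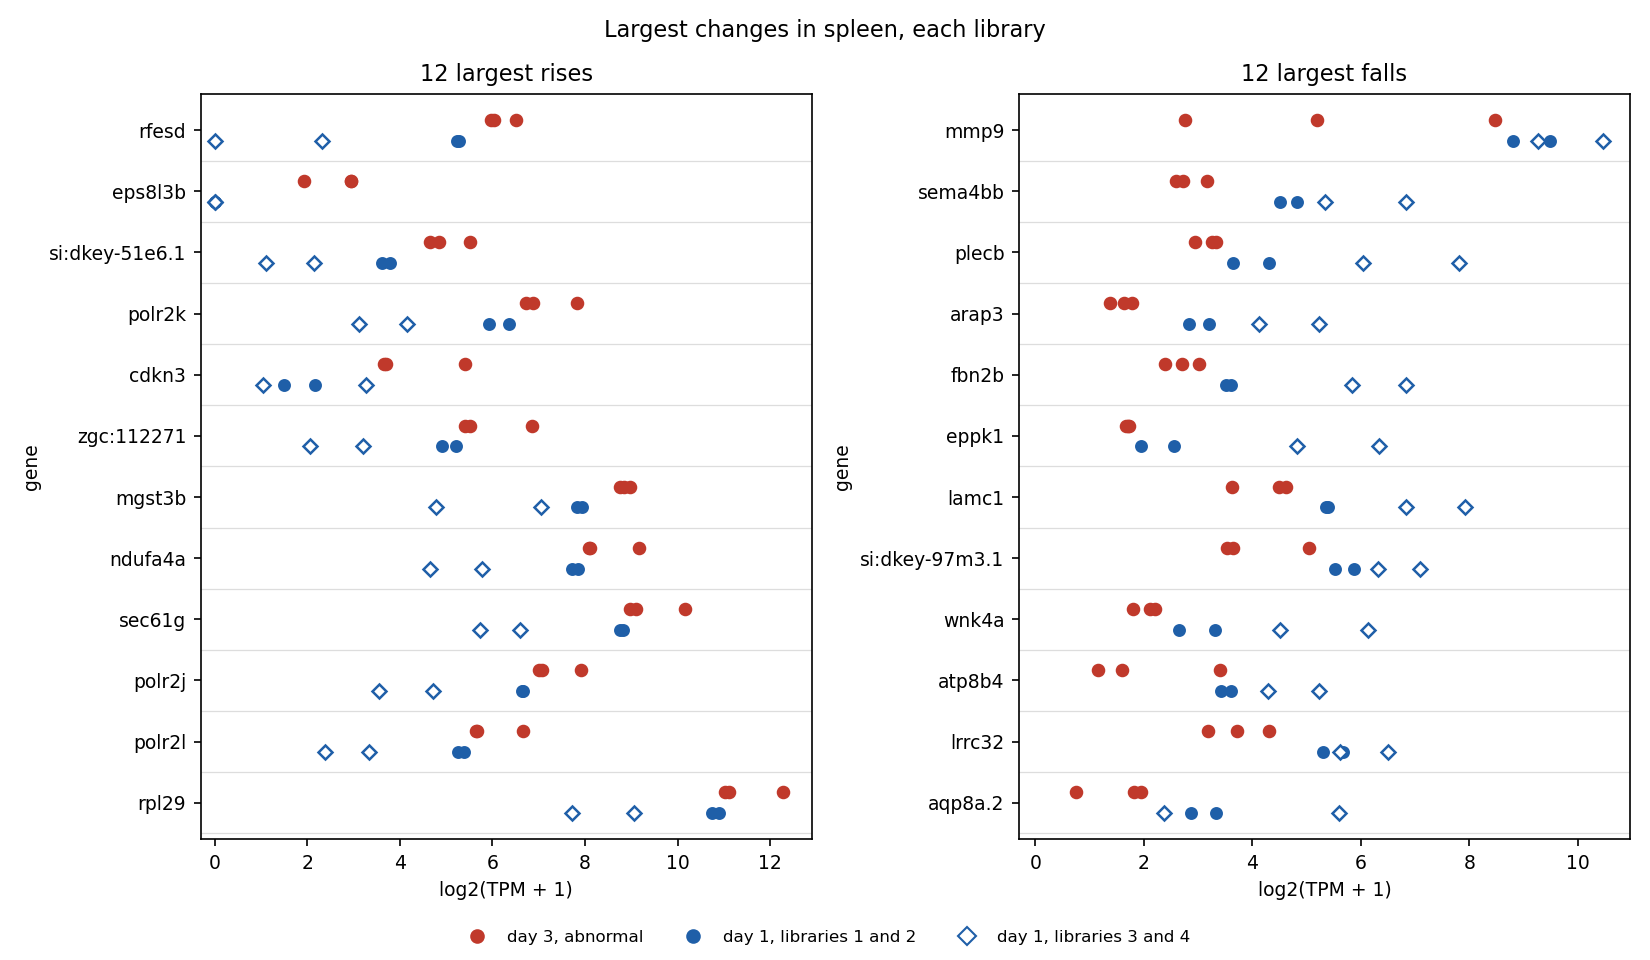
Level, as log2(TPM + 1), of the 12 largest rises (left) and 12 largest falls (right) in each library; each gene has a row of abnormal day 3 libraries (red) drawn over a row of day 1 libraries (blue), with open diamonds for day 1 libraries 3 and 4. For most genes the diamonds lie furthest from the red points, while mmp9, lrrc32, aqp8a.2 and cdkn3 have day 1 libraries 1 and 2 among or beyond them.

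Among the rises, cdkn3, which encodes a phosphatase that acts on cyclin-dependent kinases, had a similar difference with and without day 1 libraries 3 and 4. It had 11.9, 41.2 and 11.6 TPM in abnormal day 3 spleens, against 1.81, 3.47, 1.07 and 8.64 TPM in day 1 spleens, with no overlap. Its log2 difference was 2.26 (SE 0.51, limma adjusted p = 0.0339) and 2.42 without day 1 libraries 3 and 4, where it did not pass (limma adjusted p = 0.25). Both groups held 1 library above the rest, abnormal day 3 library 2 and day 1 library 4. These libraries were also the highest of their groups in the summed level of 50 mitosis genes, with 185, 691 and 146 TPM in abnormal day 3 spleens against 161, 142, 167 and 581 TPM in day 1 spleens. The part of dividing cells in the cdkn3 difference was not tested.

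The largest rise among genes with a symbol, a mean of at least 5 TPM and no overlap was that of rfesd, which encodes a protein with a Rieske iron-sulfur domain. It had 61.8, 64.8 and 89.4 TPM in abnormal day 3 spleens, against 37.6, 36.5, 4.00 and 0 TPM in day 1 spleens. The groups did not overlap, and most of the log2 difference of 2.97 (SE 0.71, limma adjusted p = 0.0399) came from day 1 libraries 3 and 4, without which it was 0.92 (limma adjusted p = 1). The gene si:dkey-51e6.1, of no given role, had 24.2, 44.8 and 27.8 TPM in abnormal day 3 spleens, against 12.8, 11.2, 1.17 and 3.42 TPM in day 1 spleens. Its log2 difference was 2.34 (SE 0.41, limma adjusted p = 0.0135) and 1.31 without those libraries (limma adjusted p = 0.299).

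The gene polr2k, for a small subunit shared by RNA polymerases, had 105, 225 and 117 TPM in abnormal day 3 spleens, against 80.7, 59.3, 7.62 and 16.8 TPM in day 1 spleens (log2 difference 2.26, limma adjusted p = 0.023). The differences of polr2j and polr2l, which also encode polymerase subunits and were among the 12 largest rises, were 1.94 (limma adjusted p = 0.0315) and 1.90 (limma adjusted p = 0.0339). Against day 1 libraries 1 and 2 alone polr2k, polr2j and polr2l differed by 1.01, 0.68 and 0.67 (limma adjusted p = 0.38, 0.416 and 0.904). The gene for a microsomal glutathione transferase, mgst3b, had 434, 499 and 457 TPM in abnormal day 3 spleens, against 226, 244, 26.3 and 132 TPM in day 1 spleens (log2 difference 1.96, limma adjusted p = 0.0341, and 0.97 without those libraries, limma adjusted p = 0.606). The translocon subunit gene sec61g, for entry of proteins into the endoplasmic reticulum, had 504, 1149 and 550 TPM in abnormal day 3 spleens, against 452, 434, 51.9 and 95.2 TPM in day 1 spleens (log2 difference 1.94, limma adjusted p = 0.0341, and 0.62 without them). The gene zgc:112271, of no given role, completed the named rises with a difference of 2.08, and 0.86 without them.

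Genes of the cytosolic ribosome that passed the threshold were all higher in abnormal day 3 spleens. Of 76 ribosomal protein genes measured, 6 rose and the other 70 did not pass (7.89% called, against 1.18% of all genes). After rescaling 61 rose and 15 did not pass (80.3%, against 18.6% of all genes). The median log2 difference was 1.31, against -0.19 over all genes. It was positive under each scaling tried, at 0.86 to 1.59. Without day 1 libraries 3 and 4 it was 0.07, against -0.03 over all genes. The example rpl29, of the large subunit, had 2096, 4978 and 2220 TPM in abnormal day 3 spleens, against 1907, 1716, 209 and 530 TPM in day 1 spleens (log2 difference 1.88, limma adjusted p = 0.0482). For rps29 of the small subunit the difference was 1.84 and for rpl30 it was 1.77, both with a limma adjusted p of 0.0482. Against day 1 libraries 1 and 2 alone these differences were 0.66 for rpl29, 0.58 for rps29 and 0.37 for rpl30.

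Summed over 73 ribosomal protein genes, leaving out rps3a, rps4x and rps6, which were extreme in day 1 library 3, the level was 156329, 195385 and 158807 TPM in abnormal day 3 spleens. It was 159323, 147445, 29273 and 42594 TPM in day 1 spleens. Day 1 libraries 1 and 2 thus lay at the level of the abnormal spleens, and day 1 libraries 3 and 4 far below. Those same libraries were the lowest of all 34 spleens: before transport the sum ran from 208019 to 262713 TPM, and at day 3 in normal fish from 167254 to 204088 TPM.

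Oxidative phosphorylation, the respiratory chain and ATP synthase of mitochondria, followed the same course. Of 57 genes, 8 rose and the other 49 did not pass (14% called, against 1.18% of all genes). After rescaling 35 rose and 22 did not pass (61.4%, against 18.6% of all genes). The median was 1.24, ran from 1.14 to 1.52 under the other scalings, and was 0.16 without day 1 libraries 3 and 4. The complex I subunit gene ndufa1 had 263, 397 and 262 TPM in abnormal day 3 spleens, against 214, 184, 23.4 and 60.1 TPM in day 1 spleens (log2 difference 1.78, limma adjusted p = 0.0339). Its neighbours in the complex ndufa3 and ndufa12 differed by 1.69 and 1.52. Without day 1 libraries 3 and 4 the differences were 0.60 for ndufa1, 0.57 for ndufa3 and 0.65 for ndufa12. The gene ndufa4a, for a subunit now assigned to cytochrome c oxidase, differed by 1.95 (limma adjusted p = 0.0399) and by 0.67 without those libraries. The list summed to 5745, 9918 and 5592 TPM in abnormal day 3 spleens, against 5892, 5413, 2288 and 2570 TPM in day 1 spleens. Abnormal day 3 library 2 alone stood above both day 1 libraries 1 and 2.

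Mitochondrial ribosomal proteins gave 5 rises among 73 genes (6.85%, against 1.18% of all genes), with a median of 0.02. After rescaling 18 rose, and the share called was 24.7%, not far from the 18.6% of all genes, with a median of 0.27, and with TPM rescaled without the most abundant genes the median was -0.10. Examples were mrpl51 (log2 difference 1.28, limma adjusted p = 0.0339), mrpl33 (1.79, limma adjusted p = 0.0348) and mrps18c (1.75, limma adjusted p = 0.0457), which differed by 0.54, 0.56 and 0.40 without day 1 libraries 3 and 4. The libraries overlapped for mrpl33, with 99.9, 238 and 91.7 TPM in abnormal day 3 spleens against 93.0, 82.1, 12.1 and 18.8 TPM in day 1 spleens.

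**Figure D4:**
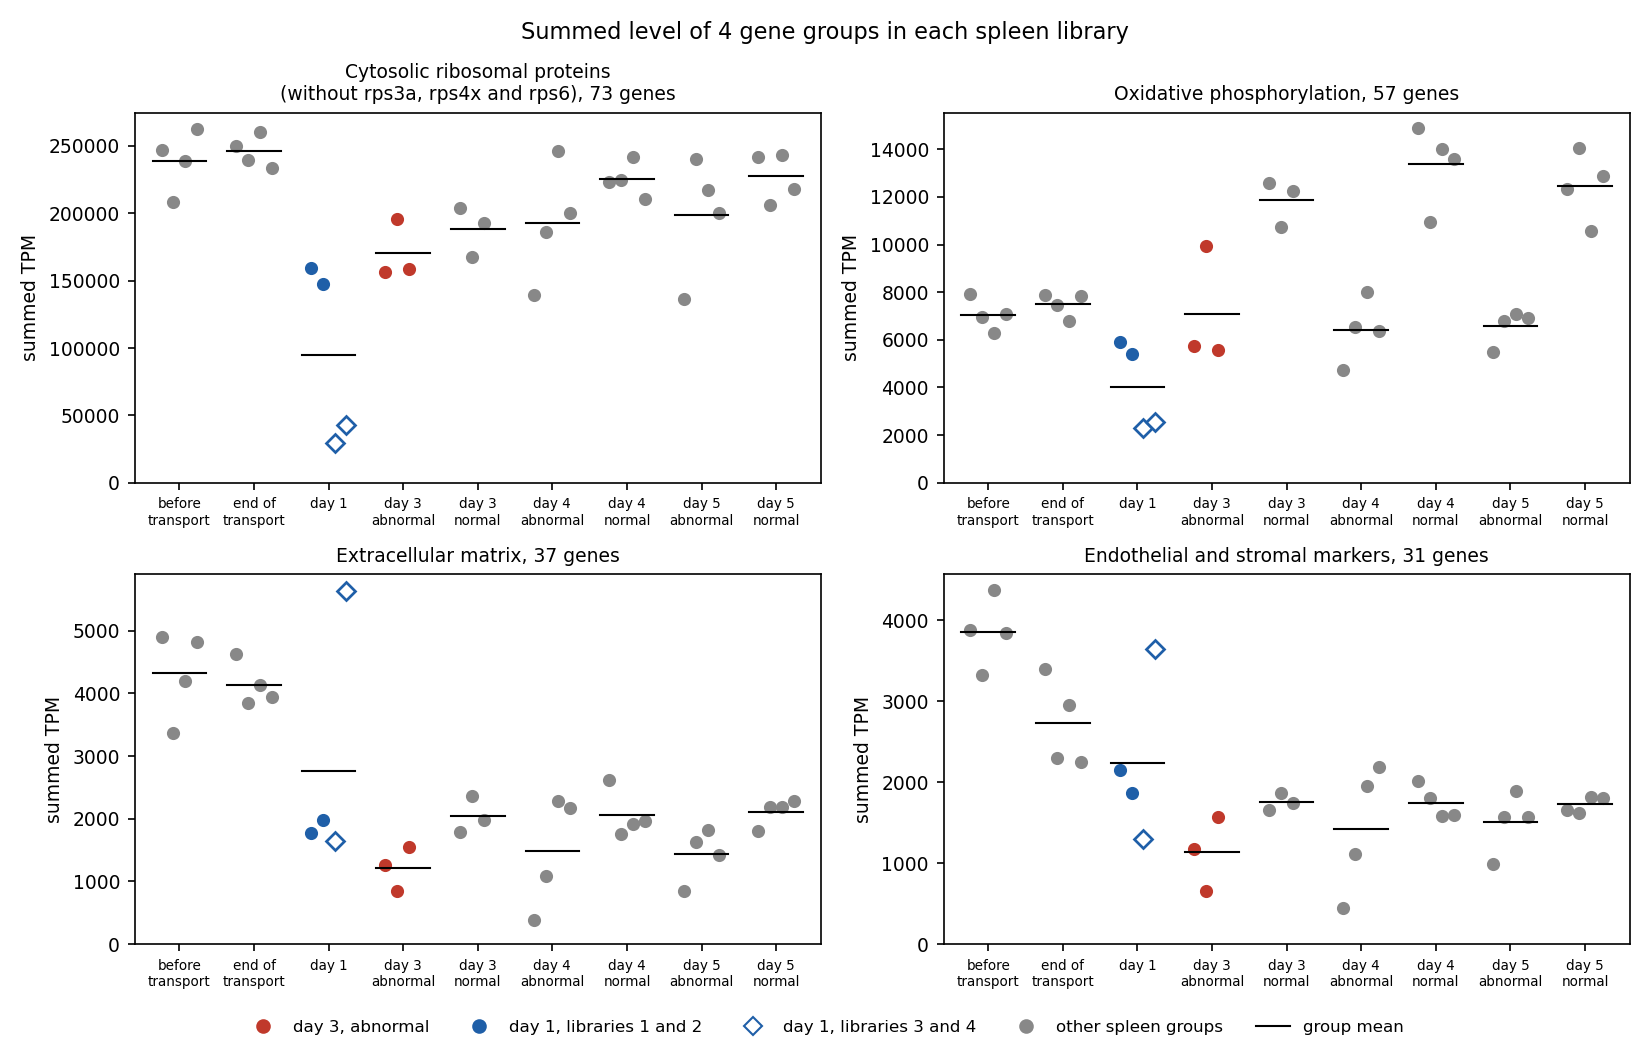
Summed TPM (vertical axes) of 4 gene groups in each of the 34 spleen libraries, by group along the horizontal axis, with abnormal day 3 in red, day 1 in blue and open diamonds for day 1 libraries 3 and 4; black lines are group means. The diamonds are the lowest of all spleens for ribosomal proteins and oxidative phosphorylation, and abnormal day 3 spleens are at the low end for extracellular matrix, at 849 to 1543 TPM.

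Genes of the extracellular matrix that passed were all lower in abnormal day 3 spleens. Of 37 measured, 4 fell and the other 33 did not pass (10.8% called, against 1.18% of all genes). After rescaling 17 fell and 20 did not pass (45.9%, against 18.6% of all genes). The median was -1.18, and -0.92 to -1.30 under the other scalings. Without day 1 libraries 3 and 4 the median was -0.67, against -0.03 over all genes, with 34 of 37 genes below 0, though the genes past the threshold there, abhd4 and lnx2a, are not matrix genes. The genes that fell with all libraries were fbn2b, lamb1b, lamc1 and, named after its value was seen, fbn1, for fibrillins and laminin chains. The laminin chain gene lamb1b had 1.88, 0.63 and 1.71 TPM in abnormal day 3 spleens, against 2.70, 4.90, 10.2 and 13.6 TPM in day 1 spleens (log2 difference -1.73, limma adjusted p = 0.043, and -1.0 without day 1 libraries 3 and 4). The list summed to 1260, 849 and 1543 TPM in abnormal day 3 spleens, against 1780, 1974, 1639 and 5639 TPM in day 1 spleens. Each day 1 spleen was above each abnormal day 3 spleen, by a small margin for day 1 library 3.

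Endothelial and stromal markers also had a median below 0. Of 31, stab2 fell and the other 30 did not pass (3.23%, against 1.18% of all genes, a difference that rests on 1 gene). After rescaling 9 fell and 22 did not pass (29%, against 18.6% of all genes). The median was -0.79, and between -0.56 and -0.93 under the other scalings. Without day 1 libraries 3 and 4 it was -0.63, against -0.03 over all genes. There 27 of 31 were below 0, and none passed the threshold. The gene stab2, for the hyaluronan scavenger receptor of sinusoidal endothelium, had 6.39, 4.06 and 10.1 TPM in abnormal day 3 spleens, against 13.5, 14.7, 41.5 and 71.8 TPM in day 1 spleens (log2 difference -1.96, limma adjusted p = 0.0473, and -1.01 without those libraries). The markers summed to 1176, 656 and 1568 TPM in abnormal day 3 spleens, against 2147, 1861, 1301 and 3644 TPM in day 1 spleens. The groups overlapped through day 1 library 3. The part of a change in stromal cell number in the differences of the matrix genes was not tested.

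Ribosome biogenesis genes, which process ribosomal RNA in the nucleolus, had a median below 0. Of 45, 2 fell and the other 43 did not pass (4.44%, against 1.18% of all genes). After rescaling 16 fell, 1 rose and 28 did not pass (37.8%, against 18.6% of all genes). The median was -0.55. Without day 1 libraries 3 and 4 it was -0.29, against -0.03 over all genes. There 40 of 45 were below 0, and none passed the threshold. The processing factor gene utp20 had 1.95, 1.26 and 1.97 TPM in abnormal day 3 spleens, against 3.54, 2.80, 15.7 and 22.0 TPM in day 1 spleens (log2 difference -1.74, limma adjusted p = 0.0341, and -0.62 without those libraries). Its partner in the list, rrp12, differed by -1.57 (limma adjusted p = 0.043, and -0.75 without them). Among 19 aminoacyl-tRNA synthetases, mars1, for the methionine enzyme, fell (5.26%, against 1.18% of all genes), and 8 fell after rescaling (42.1%, against 18.6% of all genes). It had 3.60, 2.75 and 2.98 TPM in abnormal day 3 spleens, against 9.52, 7.01, 12.0 and 22.8 TPM in day 1 spleens, with no overlap (log2 difference -1.63, limma adjusted p = 0.0315, and -1.16 without day 1 libraries 3 and 4, limma adjusted p = 0.627).

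In the other lists 1 or 2 members passed, against 1.18% of all genes, so their shares rest on very few genes. Of 33 antioxidant genes, mgst3b and sod1 rose (6.06%). The superoxide dismutase gene sod1 had 201, 202 and 234 TPM in abnormal day 3 spleens, against 121, 131, 19.6 and 98.3 TPM in day 1 spleens (log2 difference 1.49, limma adjusted p = 0.0482, and 0.75 without those libraries). Of 22 haem and iron genes, the iron-sulfur scaffold gene iscu rose and the mitochondrial transporter gene abcb10 fell (9.09%). For iscu the values were 29.9, 41.1 and 33.0 TPM in abnormal day 3 spleens, against 21.6, 18.6, 14.3 and 14.9 TPM in day 1 spleens, so day 1 libraries 3 and 4 lay close to the others (log2 difference 0.97, SE 0.21, limma adjusted p = 0.0337, and 0.75 without them, limma adjusted p = 0.524). The log2 difference of abcb10 was -1.24 (limma adjusted p = 0.0462, and -0.58 without them). Of 32 heat shock genes, hspb11 rose (3.12%, log2 difference 1.61, limma adjusted p = 0.0341, and 0.95 without those libraries). It is on the list by name and is known as a subunit of intraflagellar transport. Of 47 inflammatory genes tlr5a, a flagellin receptor gene named after its value was seen, fell (2.13%), and of 42 genes of the unfolded protein response sec61g rose (2.38%). In all, 13 of 38 lists had a member past the threshold.

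Of the single marker genes set for naming, mmp9 passed and the others did not. The endoplasmic reticulum chaperone gene hspa5 had 40.9, 35.5 and 29.6 TPM in abnormal day 3 spleens, against 70.3, 39.2, 132 and 183 TPM in day 1 spleens (log2 difference -1.35, limma adjusted p = 0.133, and -0.57 without day 1 libraries 3 and 4). The cortisol-responsive gene fkbp5 had 18.9, 158 and 60.1 TPM in abnormal day 3 spleens, against 180, 115, 334 and 194 TPM in day 1 spleens (log2 difference -1.73, limma adjusted p = 0.203, and -1.32 without them). The acute-phase gene saa was at 13.9, 158 and 6.49 TPM in abnormal day 3 spleens, against 9.73, 11.2, 0 and 0 TPM in day 1 spleens (log2 difference 2.94, limma adjusted p = 0.265, and 1.18 without them). For both genes abnormal day 3 library 2 was far above the other 2. The cytokine gene il1b stayed between 0.48 and 2.02 TPM in all 7 libraries (log2 difference 0.37, limma adjusted p = 0.474). The proliferation gene mki67 had a log2 difference of -0.81 (limma adjusted p = 0.432) with all libraries and 0.58 without day 1 libraries 3 and 4.

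Markers of several cell types were detected, which alone does not show that those cells were present. Of 23 erythroid markers, 21 were at 1 TPM or more in all 7 libraries, as were 17 of 18 T and NK cell markers, 12 of 13 macrophage markers and 12 of 14 markers of B and plasma cells. The alpha-globin gene hbae5, chosen after its values were seen, held 116184, 26841 and 98053 TPM in abnormal day 3 spleens, against 143167, 148386, 20673 and 88791 TPM in day 1 spleens, with overlapping groups (log2 difference -0.23, limma adjusted p = 0.891, and -1.11 without day 1 libraries 3 and 4). The haem synthesis gene alas2 of red cells had 578, 500 and 688 TPM in abnormal day 3 spleens, against 1007, 1170, 612 and 3113 TPM in day 1 spleens (log2 difference -1.07, limma adjusted p = 0.236, and -0.89 without them). The B cell receptor gene cd79a had 143, 154 and 106 TPM in abnormal day 3 spleens, against 132, 60.5, 20.4 and 68.1 TPM in day 1 spleens (log2 difference 1.18, limma adjusted p = 0.113, and 0.56 without them). It passed after rescaling, with a difference of 1.45 (limma adjusted p = 0.0196). The 14 markers of B and plasma cells did not move with it: none passed as reported, and their median was -0.10. After rescaling 2 were higher and 1 lower (21.4%, against 18.6% of all genes), with a median of 0.09. The macrophage receptor gene marco had 46.9, 87.4 and 59.9 TPM in abnormal day 3 spleens, against 50.6, 47.6, 63.6 and 153 TPM in day 1 spleens (log2 difference -0.15, turning to 0.12 after rescaling and to 0.35 without them). The T cell kinase gene lck had a log2 difference of -0.30 (limma adjusted p = 0.747).

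Markers of exocrine pancreas, which in many fish is scattered around the abdominal organs, were detected in these samples. Of the 6, 2 were at 1 TPM or more in all 7 libraries. The 6 markers summed to 78.1, 44.4 and 517 TPM in abnormal day 3 spleens, against 998, 814, 86.0 and 84.9 TPM in day 1 spleens. The sum was high in day 1 libraries 1 and 2 and in abnormal day 3 library 3. The median of the list was -1.57 (-3.26 without day 1 libraries 3 and 4). Of 26 hepatocyte markers, 16 were at 1 TPM or more in all 7 libraries. They summed to 485 to 912 TPM in abnormal day 3 spleens and 166 to 790 TPM in day 1 spleens. In normal day 3 spleens the sum was 2400 to 4245 TPM. Between the labels, 2 of the 26 were lower in abnormal spleens and none higher (7.69%, against 33.5% of all genes), with a median of 0.05. The part of adjacent tissue in the other differences was not tested.

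Whether the same genes separate abnormal from normal spleens on day 3 was tested in the same fit. Most of the named genes were picked on the abnormal day 3 libraries, which this test uses again. A difference in the same direction is thereby favoured and is no separate support for those genes. This difference equals the change from day 1 to abnormal minus the change from day 1 to normal. Between abnormal and normal day 3 spleens 6028 genes passed (33.5%), with 373 higher in abnormal (2.07%) and 5655 lower (31.4%). The median over all genes was -0.62. After rescaling it was 0.01, and 3877 genes passed (21.5%), with 1745 higher (9.7%) and 2132 lower (11.8%). Changes between the labels are therefore best read relative to that shift.

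Of the genes named above, eps8l3b was higher in abnormal than in normal day 3 spleens, where it was at 0, 0 and 0.13 TPM (log2 difference 2.54, SE 0.42, limma adjusted p = 6.2e-05, and 2.88 after rescaling). It had 2.51 to 7.87 TPM in abnormal day 4 spleens, against 0 to 0.25 TPM in normal day 4 spleens. On day 5 it had 2.43 to 10.1 TPM in abnormal and 0.33 to 0.99 TPM in normal spleens. Its level at the end of transport was 0 to 3.90 TPM. Over the 3 days no normal spleen reached the lowest abnormal one.

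Lower in abnormal than in normal day 3 spleens were lrrc32, arap3, si:dkey-97m3.1, stab2, mars1, lamb1b and armc2, each past the threshold before and after rescaling. The largest of these differences was that of stab2, with 97.8, 91.4 and 69.5 TPM in normal day 3 spleens (log2 difference abnormal minus normal -3.53, limma adjusted p = 2.0e-05, and -2.81 after rescaling). Spleens before transport had 15.7 to 28.2 TPM of stab2. Normal day 3 spleens lay above that range, and abnormal ones, at 4.06 to 10.1 TPM, below it. For lrrc32, with 42.1, 56.4 and 40.7 TPM in normal day 3 spleens, the difference was -1.82 (limma adjusted p = 0.00566, and -1.07 after rescaling). It stayed low in abnormal spleens on day 4, at 3.62 to 30.9 TPM against 31.9 to 58.4 TPM in normal ones. On day 5 it was at 7.32 to 32.3 TPM in abnormal and 56.8 to 77.5 TPM in normal spleens. One abnormal day 4 spleen, library 1, was the lowest of all 34 at 8339 genes and sets the low end of that group.

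For mmp9 the normal day 3 spleens had 184, 343 and 709 TPM, and the log2 difference abnormal minus normal was -3.0 (limma adjusted p = 0.0206). After rescaling it was -2.24 and did not pass (limma adjusted p = 0.12). Before transport mmp9 was at 5.09 to 12.5 TPM. Abnormal day 3 library 1, at 5.79 TPM, lay within that range, and libraries 3 and 2 lay above it, at 35.5 and 356 TPM. For sema4bb, likewise, the difference of -1.78 (limma adjusted p = 0.0153) was -1.07 after rescaling (limma adjusted p = 0.053). The gene aqp8a.2, lower in abnormal day 3 than in day 1 spleens, was higher in abnormal than in normal day 3 spleens, where it was at 0.08 to 0.14 TPM (log2 difference 1.35, limma adjusted p = 0.0366).

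For other genes the difference between the labels did not pass before rescaling, which does not show that they were alike. For cdkn3, normal day 3 spleens had 41.6, 30.1 and 30.4 TPM, and the difference abnormal minus normal was -0.86 (limma adjusted p = 0.215). The difference between normal day 3 and day 1, which shares the day 1 libraries, was 3.12 for cdkn3 (limma adjusted p = 5.8e-05). For polr2k, mgst3b, ndufa1 and rpl29 the differences between the labels were 0.59, 0.40, -0.21 and 0.12, with limma adjusted p of 0.327, 0.525, 0.727 and 0.866.

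**Figure D5:**
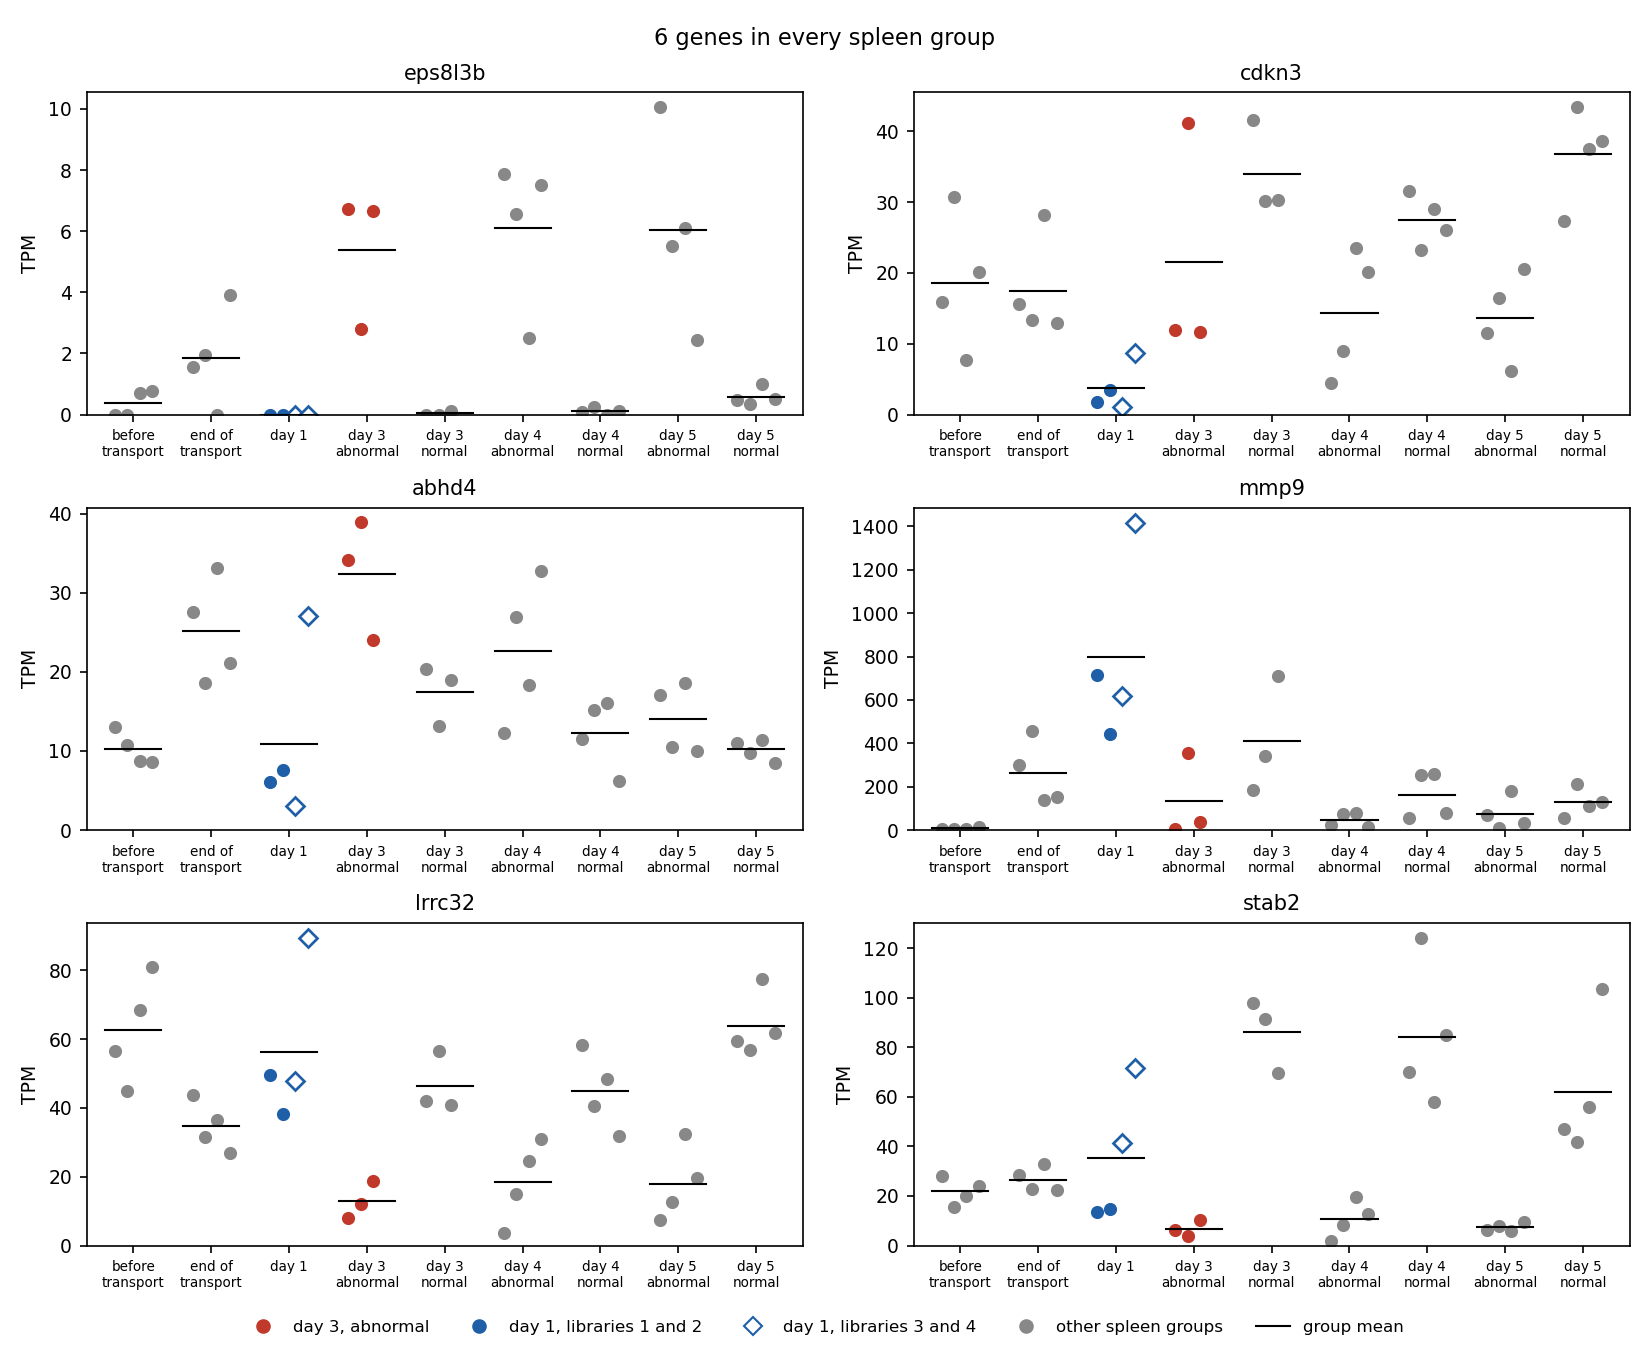
TPM (vertical axes) of 6 genes in each of the 34 spleen libraries by group, with abnormal day 3 in red, day 1 in blue, open diamonds for day 1 libraries 3 and 4, grey for the other groups and black lines for group means. eps8l3b is at 2.79 to 6.74 TPM in abnormal day 3 spleens and 0 in day 1 spleens, and lrrc32 and stab2 are low in abnormal spleens on days 3, 4 and 5.

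Some markers that did not pass against day 1 in the reported fit did pass between the labels. Abnormal day 3 spleens were lower than normal ones in marco, which had 389, 440 and 360 TPM in normal day 3 spleens (log2 difference -2.64, limma adjusted p = 6.0e-05, and -1.86 after rescaling). They were higher in hbae5, which had 2956, 8275 and 2441 TPM in normal day 3 spleens (4.11, limma adjusted p = 0.000414), and in cd79a, which had 25.5, 31.2 and 20.1 TPM in normal day 3 spleens (2.35, limma adjusted p = 0.000493). In all 3 genes the abnormal day 3 spleens overlapped the day 1 spleens and lay apart from the normal day 3 spleens. Normal day 3 and day 1 spleens, set side by side, differed by 2.49 in marco, -4.34 in hbae5 and -1.17 in cd79a. The other B and plasma cell markers did not all follow cd79a. Of 14 in the list, 4 were higher and 3 lower in abnormal than in normal day 3 spleens (50%, against 33.5% of all genes). Their median was -0.43. After rescaling 6 were higher and 2 lower (57.1%, against 21.5% of all genes), with a median of 0.31. The list summed to 581 to 654 TPM in abnormal and 550 to 672 TPM in normal day 3 spleens. Across all genes, 5645 passed between normal day 3 and day 1 spleens (31.4%), with 5027 higher (27.9%) and 618 lower (3.43%), and 6241 after rescaling (34.7%), with 3160 higher (17.6%) and 3081 lower (17.1%). These counts share the day 1 libraries with the comparison above.

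By list, 16 of 23 erythroid markers were higher and 1 lower in abnormal than in normal day 3 spleens after rescaling, with a median of 1.99. Of 11 thrombocyte markers 7 were higher and none lower, with a median of 1.49. Of all genes, 9.7% were higher and 11.8% lower in that setting. Lower in abnormal spleens after rescaling were 16 of 50 mitosis genes and 10 of 19 aminoacyl-tRNA synthetases, with no member of either list higher. Of 15 glycolysis genes 9 were lower and 1 higher, of 22 glucocorticoid response genes 11 were lower and 1 higher, and of 63 autophagy and lysosome genes 20 were lower and 2 higher. For the 76 ribosomal protein genes the median difference between the labels was -0.23, turning to 0.55 after rescaling. The mitosis genes had summed levels of 813 to 1011 TPM in normal day 3 spleens, above each abnormal day 3 and day 1 spleen.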

How the data were processed

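RNA of single spleens was depleted of ribosomal RNA and made into directional libraries, per the labels' protocols. The submitters' processing notes name fastp 0.23.2, a read trimmer, and Salmon 1.10.0, which estimates transcript abundance. The authors deposited 1 table of TPM values, abundances scaled within each library, for 18666 genes and 68 libraries. The labels do not name the unit of this table, and it was read as TPM because each spleen column sums to between 995833 and 998871. Depth cannot be recovered from TPM, so no counting interval is given. The genome build is not given in the sources used here. A RefSeq gene table (assembly ASM1485139v1) held 18657 of the gene names and served for names alone, and 8139 names are locus numbers without a symbol.

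Group means of log2(TPM + 1) were fitted with limma 3.58.1 in R 4.3.3 (empirical Bayes with trend) over all 34 spleen libraries in 9 groups, which share 1 estimate of spread (25 residual and 4.89 prior degrees of freedom). A gene was tested if 3 or more spleen libraries reached 1 TPM, and p-values were adjusted by Benjamini-Hochberg over all genes tested. On data simulated for this comparison over 17998 genes, the fit recovered 19% of 100 genes given a log2 shift of 1 and 78% of 100 given a shift of 2. The shifted genes averaged 5 TPM or more, and each gene had the same independent spread in all libraries. In the real data day 1 libraries 3 and 4 departed together in many genes, so these shares need not hold for this comparison. Libraries of a group were not copies of each other (at least 18331 genes differed in every pair). Python 3.11.15 with pandas 2.3.3 and matplotlib 3.10.9 did the rest.

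The comparison, gene lists and rules were chosen with earlier results of these data known. Genes named were the 12 largest rises and 12 largest falls past the threshold that had a symbol, averaged 5 TPM or more in the higher group and showed no overlap. Up to 3 members by smallest p joined them from each list with at least 4 measured members and a called share at least 2 times the overall share, as did fixed markers, of which mpx had no gene of that name. Gene lists (38) were matched by symbol with paralogue suffixes, and no set test was run. Alternatives were pseudocounts of 0.1 and 0.5, no filter, a 5 TPM filter, quantile normalization, median-of-ratios rescaling, fitting the compared groups by themselves, a replicate block, array weights, robust empirical Bayes and leaving out each library. Chosen after seeing the data were fits that left out day 1 libraries 3 and 4, these or either of them with rescaling, and TPM rescaled without 11 genes above 10000 TPM in a compared library.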

Additional observations from a re-analysis of the deposited data

Results flagged for a closer look

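In 4 of 55 named genes, 1 day 1 library lay far from the other 3 of its group, where chance alone gives about 1 in 20. These were library 4 at 47.1 TPM of aqp8a.2, 26.0 TPM of abcb10 and 153 TPM of marco, and library 3 at 1.66 TPM of sulf2a. Library 4 is also the library that is highest of all 34 spleens at 6990 genes. Its part in these values was not tested. The count of 4 of 55 is near that 1 in 20, and most of the named genes were picked from these same data. The rule looks for 1 library apart, so it can miss genes in which libraries 3 and 4 departed together.

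In 19 of the 55 genes the change from day 1 differed between abnormal and normal fish, tested as abnormal minus normal on day 3 (limma, adjusted p under 0.05). In 4 of them the abnormal day 3 spleens were higher, with log2 differences of 4.11 in hbae5, 2.54 in eps8l3b, 2.35 in cd79a and 1.35 in aqp8a.2. In the other 15 they were lower. These differences were -3.53 in stab2, -3.47 in fkbp5, -3.0 in mmp9, -2.64 in marco, -2.6 in si:dkey-97m3.1, -2.12 in arap3, -2.04 in hspa5 and -2.04 in atp8b4. They were -1.89 in mars1, -1.82 in lrrc32, -1.8 in lamb1b, -1.78 in sema4bb, -1.69 in mki67, -1.62 in armc2 and -1.09 in rrp12. After rescaling, 13 of the 19 were past the threshold in the same direction. These counts are near the share over all genes, of which 33.5% passed between the labels as reported and 21.5% after rescaling, so they show nothing particular to the named genes. The median of all genes between these groups was -0.62 before rescaling.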

How the results depend on the processing

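The count of 212 genes between abnormal day 3 and day 1 spleens moved with most settings. It was 100 with a pseudocount of 0.1, 3346 after median-of-ratios rescaling, 3183 after quantile normalization, 2 with only the compared groups in the fit and 2580 with array weights, whose estimation stopped before convergence. Leaving out 1 library gave 8 to 2681: 2325 and 2681 without day 1 library 1 or 2, 24 and 21 without library 3 or 4, and 9, 13 and 8 without abnormal day 3 library 1, 2 or 3. Chosen after seeing the data, leaving out day 1 libraries 3 and 4 gave 2, or 4 with rescaling. Leaving out only library 3 or 4 with rescaling gave 472 and 733, and TPM rescaled without the most abundant genes gave 4085. The share of calls that were higher was 52.8% as reported, 42.1% after quantile normalization and 15.8% without the most abundant genes. The replicate block gave 131. Deviations of same-numbered abnormal day 3 and day 1 libraries correlated at -0.11, 0.07 and -0.04. Those of differently numbered libraries ran from -0.15 to 0.15. No pairing by number was seen, and so few libraries cannot show that there was none. Between abnormal and normal day 3 spleens 6028 became 3877 after rescaling, 3911 after quantile normalization, 12717 with array weights, 9064 without day 1 libraries 3 and 4, and 3467 without the most abundant genes. The share of calls higher there was 6.2% as reported, 45% after rescaling and 25.6% without the most abundant genes. Between normal day 3 and day 1 spleens 5645 became 1047 with only the compared groups, 11326 with array weights, 3716 without day 1 libraries 3 and 4 with rescaling, and 4163 to 8988 with 1 library left out, the highest without day 1 library 4. None of the 55 named genes turned its direction while past the threshold. Of the 45 past it, 43 were no longer past without day 1 libraries 3 and 4, and 44 with only the compared groups. The cause was not tested.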

Other observations

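Autophagy and lysosome genes, which digest cell contents and engulfed red cells, were not called as a group in the reported fit. After rescaling 21 of 63 were higher and 1 lower in abnormal day 3 than in day 1 spleens, against 8.94% and 9.65% of all genes. Their median was 0.18 as reported and between 0.07 and 0.46 under the other scalings. It was 0.20 without day 1 libraries 3 and 4, against -0.03 over all genes. There 52 of 63 lay above 0, and none passed the threshold. The list summed to 4919, 4730 and 4825 TPM in abnormal day 3 spleens, against 3073, 3765, 2066 and 6891 TPM in day 1 spleens, so it was above day 1 libraries 1 to 3 and below library 4.

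Interferon response genes summed to 928, 754 and 600 TPM in abnormal day 3 spleens, against 454, 626, 565 and 3147 TPM in day 1 spleens, so that day 1 library 4 alone was high. The 50 mitosis genes all lay above 0 against day 1 libraries 1 and 2, with a median of 0.57, against -0.03 over all genes. None of them passed the threshold in that fit. Abnormal day 3 library 2 held 691 TPM of them, against 185 and 146 TPM in abnormal day 3 libraries 1 and 3. Day 1 libraries 1 and 2 held 161 and 142 TPM, close to abnormal day 3 libraries 1 and 3.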
